A study of Musca domestica with 29 samples.

Results

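The comparison set 12 head libraries against 12 abdomen libraries of male house flies (Musca domestica). They were all of the male libraries of a series of 29, and the 5 female libraries were not used here. Each library was poly(A) RNA from the dissected head or abdomen of an individual fly. Both tissues were sampled from 4 male genotypes with 3 replicates each. YM males of strain IsoCS and YM(III) males of strain bwbCS carried the male-determining Y chromosome. IIIM #1 males of strain CS and IIIM #2 males of strain CSrab carried the determiner on chromosome III. The labels call the males isogenic apart from these chromosomes, and YM(III) males differed in a copy of chromosome III as well. No treatment, age or rearing condition is given in the sources used here. The question was how expression differed between the 2 body parts, and whether that difference was the same in the 4 genotypes.

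A fly head holds the brain, the compound eyes, the antennae and mouthparts, and some fat body. A male abdomen holds most of the gut and fat body, the reproductive tract with testes and accessory glands, and body wall muscle and cuticle. Nerve cells use acetylcholine as their main fast excitatory transmitter in insects and GABA as their main inhibitory one. Fat body and gut are known sites of detoxification, of storage metabolism and of antimicrobial peptide synthesis. Each value is from a mixture of cells, so fewer cells of a type and less RNA per cell cannot be told apart.

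Head libraries held 5.8 to 39.24 M reads (megareads) and abdomen libraries 0.79 to 43.47 M reads, and the abdomens of YM replicate 2 and IIIM #2 replicate 2 both held 0.79 M reads. By library total alone, and for counting error only, 0 reads allow a level of up to 3 reads. That is 0.0764 to 0.517 CPM (counts per megaread) in a head library and 0.069 to 3.8 CPM in an abdomen library. The levels given below are divided by a scaling factor as well, 1.05 to 1.25 in heads and 0.60 to 1.22 in abdomens. Tissue separated the libraries along the first principal component, which took 71.3% of the variance, with heads at −122.8 to −101.5 and abdomens at 76.7 to 125.7. Replicate 3 stood apart on the second component in both tissues, at 21.4 to 32.7 in heads and 32.3 to 102.0 in abdomens, while replicates 1 and 2 were at −22.9 to −9.3 and −74.9 to −1.2. All 4 replicate 3 heads lay above all 8 other heads for 14.6% of tested genes and below them for 10.3%, against 10.2% and 3.9% for abdomens. Replicate 3 libraries were also the deepest of each tissue, with 31.86 to 39.24 M reads in heads, where the others had 5.8 to 30.82, and 17.61 to 43.47 M reads in abdomens, where the others had 0.79 to 8.58. What sets replicate 3 apart is not given in the labels, and its part in the results below was not tested beyond the values given with them.

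**Figure D1:**
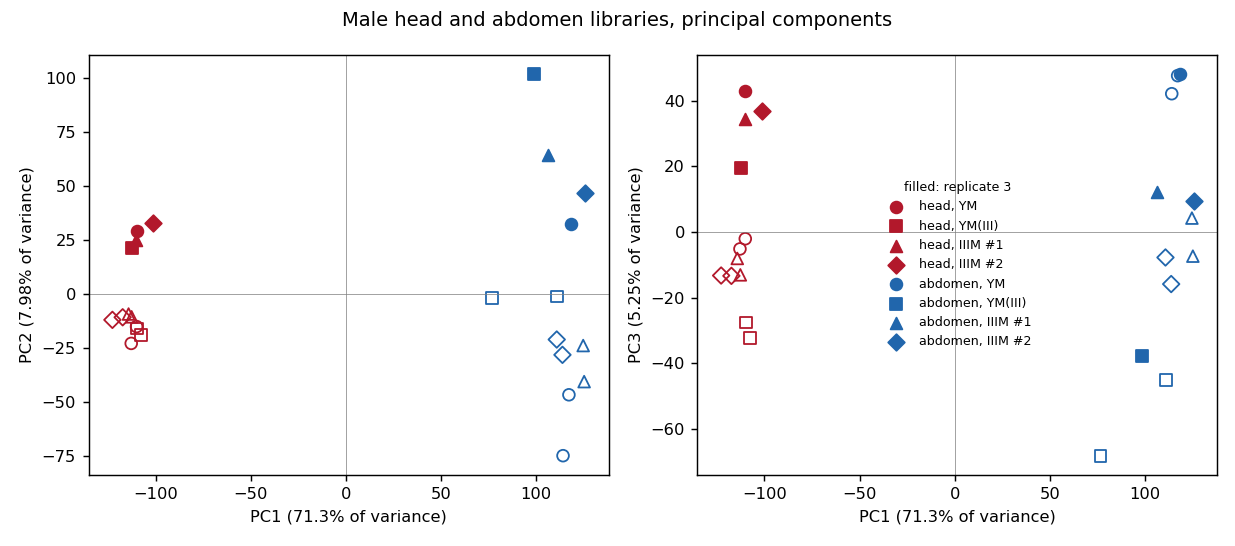
Principal components of log2(CPM + 1) over 24 libraries, with component 1 on the x axis and components 2 (left) and 3 (right) on the y axes, in arbitrary units with the percent of variance in brackets. Heads are red and abdomens blue, shapes mark genotypes and filled symbols replicate 3. Heads sit at −122.8 to −101.5 on component 1 and abdomens at 76.7 to 125.7, and YM abdomens sit above YM(III) abdomens on component 3.

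Heads and male abdomens differed at most measured genes. Of 12461 genes tested, limma called 9539 (76.6%), taking as threshold 0.05 for the p adjusted by Benjamini-Hochberg, with 4861 higher in head (39%) and 4678 lower (37.5%). Past a fold of 2 it called 3928 (31.5%), with 2024 higher (16.2%) and 1904 lower (15.3%). Head and abdomen libraries did not overlap for 2132 genes higher in head (17.1%) and 1433 lower (11.5%). Over the tested genes the log2 fold change had a median of 0.02, and 51% of called genes were higher in head. With library totals alone the median was 0.38 and 63.4% of calls were higher, so the balance of directions, and the sign of small fold changes, depends on the scaling.

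Large differences were more often toward the abdomen. At a log2 size of at least 5, 175 genes were higher in head and 263 lower. At a size of at least 8 the counts were 22 and 48. Genes at 1 CPM or more in every head and under 1 CPM in every abdomen numbered 207, and the reverse held for 390. These 2 counts face unequal limits. In the abdomens of YM replicate 2 and IIIM #2 replicate 2, 1 read was already 1.04 and 1.25 CPM. The 207 genes thus had to have no read in either, and the deeper heads set no such bar. The genes higher in head past a fold of 2 took 36.7 to 45.8% of reads in heads and 1.92 to 3.78% in abdomens. Those lower in head took 7.15 to 9.61% of reads in heads and 41.5 to 55.7% in abdomens. Both shares describe genes chosen by the same fold change.

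The direction was mostly shared by the genotypes. Of the 9539 called genes, 9135 (95.8%) had the same sign in all 4 genotypes, and of those past a fold of 2, 3923 of 3928 (99.9%). These genes were called on the same libraries pooled, which favours genes with 1 sign in all genotypes. Over all tested genes, pairs of genotypes shared the sign for 85.2% (YM and YM(III)) to 92.3% (IIIM #1 and IIIM #2). Within a genotype, with 3 heads and 3 abdomens, limma called 5993 genes (48.1%) in YM, 6094 (48.9%) in YM(III), 6831 (54.8%) in IIIM #1 and 6776 (54.4%) in IIIM #2, and 4105 genes were called with 1 sign in each of the 4. Fold changes correlated across genes at r = 0.97 between IIIM #1 and IIIM #2 and at 0.86 between YM and YM(III), the highest and lowest of the 6 pairs. Genes are not independent replicates, so these values carry no p.

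Of the genes in both tables, 53 carry a symbol other than that of a transfer RNA, and 48 of them passed the filter on low values. The account below follows these genes by role. Neuronal genes had the highest median fold change of the lists with more than 1 tested gene. Of 5 tested channels, transmitter receptors and neuropeptides, 4 rose in head, where 39% of all tested genes did, 3 of them past a fold of 2 (16.2% of all), with a median log2 fold change of 2.22 against 0.02 over all genes. Their levels summed to 170 to 412 CPM in heads and 68.4 to 663 CPM in abdomens, and most of the abdomen sum came from the sodium channel gene para-like.

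Mda2 encodes a nicotinic acetylcholine receptor alpha subunit. It measured 6.8, 105 and 144 CPM (lowest, median and highest) in heads and 0, 0.233 and 1.33 CPM in abdomens. The groups did not overlap, and the 4 replicate 3 heads, at 6.8 to 41.9 CPM, lay below the other 8 at 92.6 to 144. Head minus abdomen, the log2 value was 5.56 (SE 0.43, limma adjusted p = 6.27e-11), and edgeR gave 8.41. A pseudocount of 1 CPM understates the change of genes that are near 0 in a tissue. Whether this alone set the limma and edgeR values apart was not tested.

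The neuropeptide gene pdf, whose product is released by clock neurons, measured 17.6, 49.4 and 67 CPM in heads and 0, 0.606 and 1.25 CPM in abdomens. The lowest head lay above the highest abdomen in every genotype, and the lowest heads were those of replicate 3, at 17.6 to 33.8. Head minus abdomen, the log2 value was 4.81 (SE 0.21, limma adjusted p = 1.49e-15).

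MdRdl encodes a GABA-gated chloride channel subunit. It measured 0.43, 5.81 and 8.78 CPM in heads, and 10 of 12 abdomens had 0 reads. All 12 abdomens together held 3 reads and all heads 1073, a ratio of pooled levels of 129 with a 95% counting interval of 43.9 to 624. The log2 fold change on the CPM + 1 scale was 2.22 (SE 0.29, limma adjusted p = 3.62e-07). Replicate 3 heads measured 0.43 to 1.25 CPM and the others 5 to 8.78.

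The receptor subunit nAChRbeta3 rose less, with 18, 26.8 and 36.4 CPM in heads and 5.1, 14 and 23.7 CPM in abdomens (log2 0.96, SE 0.21, limma adjusted p = 0.000317), and its groups overlapped. The sodium channel gene para-like did not pass the test, at 96.1, 172 and 218 CPM in heads and 46.7, 210 and 657 CPM in abdomens (log2 −0.28, SE 0.34, limma adjusted p = 0.463). Its 4 replicate 3 abdomens, at 342 to 657 CPM, lay above the other 8 at 46.7 to 245, and with replicates 1 and 2 alone the value turned to 0.43 (limma adjusted p = 0.18). Mda6, another nicotinic alpha subunit, was too low to test. It had 171 reads over 11 of 12 heads and 0 reads in all abdomens, at least 20.5-fold higher in head with 3 reads over all abdomens as the floor.

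Of the chemosensory receptors, Gr2, a gustatory receptor, rose in head. It measured 0.149, 2.77 and 15.8 CPM in heads and 0, 0.0726 and 1.33 CPM in abdomens, with 6 abdomens at 0 reads (log2 1.92, SE 0.40, limma adjusted p = 0.000144). The groups overlapped, and replicate 3 heads at 9.7 to 15.8 CPM lay above the others at 0.149 to 4.18. IR25a, an ionotropic co-receptor and the only olfactory marker with a symbol, did not pass the test, at 14.7, 22.9 and 28.1 CPM in heads and 1.64, 20.6 and 58.1 CPM in abdomens (log2 0.29, SE 0.33, limma adjusted p = 0.435). Its heads were alike in all genotypes, while abdomens averaged 44.8 ± 18.4 CPM in YM and 6.03 ± 4.84 CPM in YM(III) (SD, n = 3 each). Its genotype by tissue test missed the threshold (limma adjusted p = 0.0711), and with replicates 1 and 2 alone its overall log2 value turned to −0.25 (limma adjusted p = 0.486). Opsins, arrestins and the named testis, sperm and trypsin markers carry no symbol here and were not analysed, so the labelled tissues were checked with neuronal, olfactory, fat body and midgut symbols alone.

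**Figure D2:**
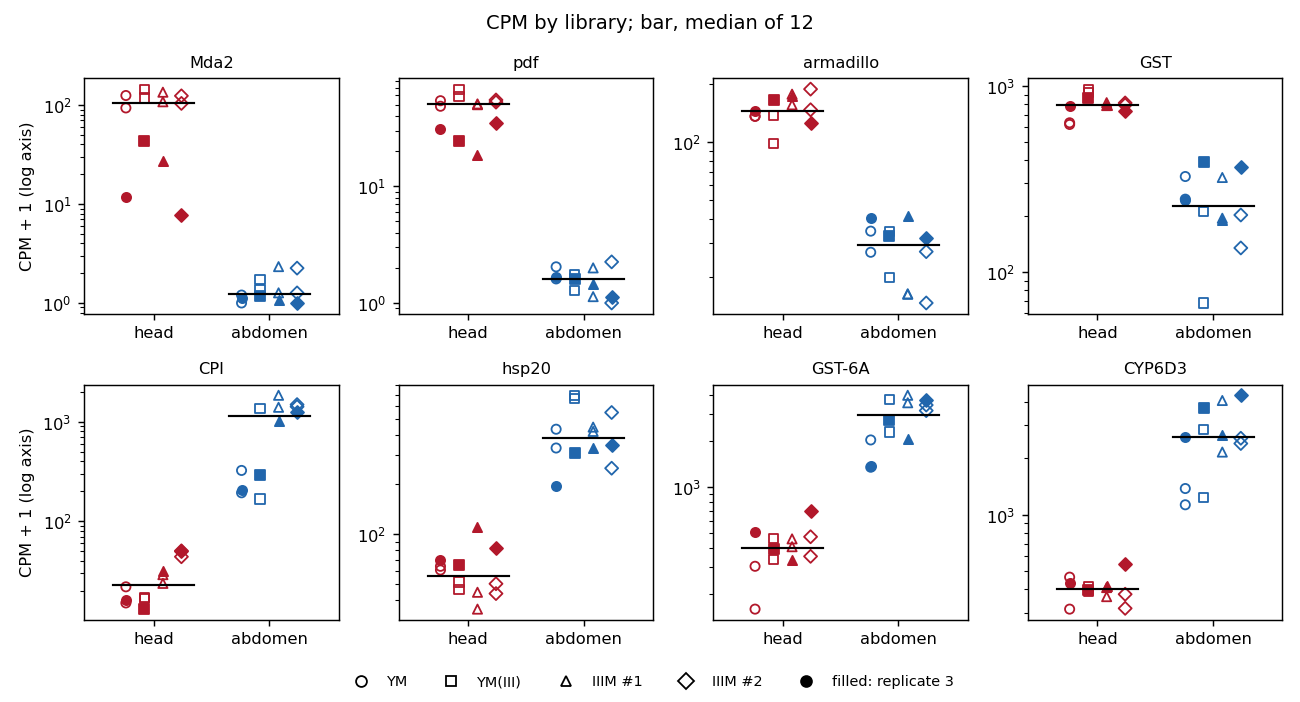
CPM + 1 on a log axis for 8 named genes, in 12 heads (red, left) and 12 abdomens (blue, right), with shapes for genotypes, filled symbols for replicate 3 and a bar at the median of 12. In each of the 8 the tissues do not overlap, because they were picked among genes without overlap. Of all tested genes, 28.6% did not overlap. Mda2 and pdf show the low replicate 3 heads, at 6.8 to 41.9 and 17.6 to 33.8 CPM.

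Detoxification genes with a symbol moved in both directions. Of 9 tested genes of xenobiotic metabolism, 2 rose in head and 7 fell, against 39% and 37.5% of all tested genes. Past a fold of 2 the counts were 2 and 3, against 16.2% and 15.3% of all, and the median log2 fold change was −1.49. Levels over the list summed to 2210 to 7180 CPM in heads and 4460 to 18100 CPM in abdomens. The cytochrome P450 gene CYP6G4 and the glutathione transferase gene GST were higher in head, whereas the P450 genes CYP6D3, CYP6A24, CYP6D8 and CYP12A2, the transferase gene GST-6A, the carboxylesterase gene MdaE7 and CPR, the reductase that supplies P450 enzymes with electrons, were lower.

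GST measured 622, 791 and 964 CPM in heads and 67.3, 227 and 390 CPM in abdomens. GST-6A, of the same enzyme family, went the other way, with 157, 397 and 700 CPM in heads and 1350, 2970 and 4010 CPM in abdomens. Neither gene overlapped between tissues. The log2 fold changes were 1.84 (SE 0.22, limma adjusted p = 6.76e-08) for GST and −2.77 (SE 0.17, limma adjusted p = 1.6e-12) for GST-6A, with the same signs in all 4 genotypes.

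CYP6D3 measured 313, 402 and 543 CPM in heads and 1130, 2580 and 4340 CPM in abdomens, again without overlap (log2 −2.58, SE 0.19, limma adjusted p = 3.46e-11). CYP6G4 measured 533, 926 and 3530 CPM in heads and 67, 192 and 1010 CPM in abdomens (log2 2.26, SE 0.44, limma adjusted p = 8.01e-05). The CYP6G4 groups overlapped only through the replicate 3 abdomens of YM(III) and IIIM #2, at 1010 and 860 CPM, and its replicate 3 heads lay above the other heads, at 1370 to 3530 CPM against 533 to 1050.

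CYP6A24 measured 72.7, 170 and 271 CPM in heads and 267, 983 and 3270 CPM in abdomens (log2 −2.81, SE 0.36, limma adjusted p = 2.99e-07). CPR measured 269, 317 and 685 CPM in heads and 373, 878 and 3160 CPM in abdomens (log2 −1.49, SE 0.34, limma adjusted p = 0.000357). Both were higher in replicate 3 abdomens than in the others, at 2020 to 3270 CPM for CYP6A24 and 2220 to 3160 for CPR. CYP6D8 (log2 −1.59, SE 0.59, limma adjusted p = 0.0189) and CYP12A2 (−0.69, SE 0.14, limma adjusted p = 8.47e-05) also fell, and with library totals alone they were no longer called (limma adjusted p = 0.0531 and 0.0573). MdaE7 was lower by a log2 value of −0.38 (SE 0.12, limma adjusted p = 0.00887), which became 0.02 with library totals alone. CYP12A1 was too low to test, with 151 reads in heads and 92 in abdomens. HR96, whose Drosophila homologue is a nuclear receptor in the response to xenobiotics, was higher in head without overlap, at 17.1, 21.1 and 32.6 CPM in heads and 2.07, 6.2 and 11.3 CPM in abdomens (log2 1.77, SE 0.19, limma adjusted p = 1.24e-08).

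Among genes of metabolism, ODC, which makes polyamines, and TPS, which makes the blood sugar trehalose, fell in head. ODC measured 10.2, 20.5 and 41.3 CPM in heads and 48.4, 83.9 and 153 CPM in abdomens, without overlap (log2 −2.18, SE 0.21, limma adjusted p = 1.81e-09). TPS measured 134, 195 and 342 CPM in heads and 244, 699 and 1720 CPM in abdomens (log2 −1.72, SE 0.27, limma adjusted p = 4.79e-06). Its replicate 3 libraries lay above the others in both tissues. The water channel gene AQP did not pass the test (log2 −0.30, SE 0.22, limma adjusted p = 0.221). Its replicate 3 heads were high, at 113 to 119 CPM against 39.6 to 93.7, and with replicates 1 and 2 alone it was called lower in head (log2 −0.76, limma adjusted p = 0.00367). Without the YM replicate 3 head it was called as well (−0.49, limma adjusted p = 0.0474), and with library totals alone its value was 0.10 (limma adjusted p = 0.736).

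Of 3 fat body markers, yp3 fell in head and attacin and diptericin were not called. The yolk protein gene yp3, best known from females, measured 1.07, 1.96 and 6.28 CPM in male heads and 7.69, 18.4 and 106 CPM in male abdomens (log2 −2.75, SE 0.33, limma adjusted p = 1.02e-07). The 2 highest abdomens were YM(III) replicates 1 and 2, at 106 and 102 CPM. The maternal gene bcd had 0 reads in heads and 24 reads in 2 abdomens, too few to test. The gene CPI had the largest log2(CPM + 1) fold change toward abdomen among genes with a symbol, at 12, 21.7 and 49.2 CPM in heads and 166, 1140 and 1850 CPM in abdomens (log2 −4.74, SE 0.26, limma adjusted p = 1.37e-13). In abdomens it averaged 240 ± 72.2 CPM in YM and 1430 ± 411 CPM in IIIM #1 (SD, n = 3 each), and its tissue difference had the same sign in all 4 genotypes. As a ratio of means, abdomen over head, lysozyme at 95.5 exceeded CPI at 34.8.

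Antimicrobial genes varied widely among libraries of a tissue. Of the 4 with a symbol, limma called lysozyme lower in head and did not call attacin, diptericin or defensin-1, while 76.6% of all tested genes were called. Lysozyme, an enzyme that cleaves bacterial walls, measured 0, 0 and 0.776 CPM in heads and 0, 3.85 and 63 CPM in abdomens (log2 −2.25, SE 0.41, limma adjusted p = 3.14e-05), with 36 reads over all heads and 1158 over all abdomens. Diptericin measured 0.0612, 0.666 and 357 CPM in heads and 0, 3.23 and 5560 CPM in abdomens (log2 −1.55, SE 1.09, limma adjusted p = 0.2). The highest libraries were YM replicates 1 and 2 in each tissue, at 118 and 357 CPM in heads and 1220 and 5560 in abdomens. edgeR and DESeq2 called it lower in head (adjusted p = 0.0325 and 0.00839), as did limma with a replicate block (adjusted p = 0.000872) and limma without the YM replicate 3 abdomen (log2 −2.25, adjusted p = 0.0313). Without the YM replicate 2 abdomen the log2 value was −1.0 (limma adjusted p = 0.378), and without both libraries under 1 M reads −0.71 (limma adjusted p = 0.545). In the other limma settings and with any other library left out it stayed uncalled. Defensin-1 was at 26.3, 137 and 318 CPM in heads and 10.1, 30.6 and 1670 CPM in abdomens (log2 1.2, SE 0.64, limma adjusted p = 0.0952). It was called higher in head by limma without the YM replicate 1 abdomen (log2 1.45, adjusted p = 0.0289), without the YM replicate 2 abdomen (1.46, adjusted p = 0.039), with library totals alone (1.58, adjusted p = 0.0337), with the replicate block (adjusted p = 0.0496) and with a term for replicate 3 (adjusted p = 0.0435). Attacin measured 0.432, 3.7 and 95.5 CPM in heads and 0.333, 2.06 and 822 CPM in abdomens (log2 −0.08, SE 0.79, limma adjusted p = 0.934), and the sign of its value changed with several settings.

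Of 5 tested chaperones, 1 rose and 3 fell in head, a share called near the 76.6% of all tested genes, and the HSP70 call did not hold under many alternatives. The small heat shock gene hsp20 measured 34, 54.8 and 110 CPM in heads and 196, 382 and 695 CPM in abdomens, without overlap (log2 −2.76, SE 0.21, limma adjusted p = 3.69e-11). Of the subunits of the cytosolic chaperonin CCT, which folds actin and tubulin, CCT-zeta fell without overlap, at 123, 148 and 165 CPM in heads and 198, 250 and 321 CPM in abdomens (log2 −0.82, SE 0.09, limma adjusted p = 3.04e-08). CCT-eta rose (log2 0.45, SE 0.10, limma adjusted p = 0.000546) and CCT-delta was not called (−0.17, SE 0.20, limma adjusted p = 0.446), with a value of 0.22 under library totals alone.

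HSP70 measured 683, 3520 and 4930 CPM in heads and 3420, 4440 and 5500 CPM in abdomens (log2 −0.67, SE 0.29, limma adjusted p = 0.041). Its 4 replicate 3 heads, at 683 to 2230 CPM, lay below the other 8 at 3470 to 4930, while replicate 3 abdomens overlapped the others. With replicates 1 and 2 alone the value was −0.04 (limma adjusted p = 0.686). The call was also lost in edgeR (adjusted p = 0.103), in DESeq2 (adjusted p = 0.113), with library totals alone (−0.28, limma adjusted p = 0.395), without both libraries under 1 M reads (limma adjusted p = 0.081) and on leaving out any 1 of 8 libraries, with a highest limma adjusted p of 0.077. These were the IIIM #2 replicate 3 head and the abdomens of YM replicates 2 and 3, YM(III) replicate 3, IIIM #1 replicates 1 and 2 and IIIM #2 replicates 2 and 3.

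Of 3 superoxide dismutase genes, which clear superoxide, 2 fell in head, and 37.5% of all tested genes did. SOD measured 54.4, 145 and 198 CPM in heads and 307, 666 and 1080 CPM in abdomens, without overlap (log2 −2.21, SE 0.21, limma adjusted p = 2.11e-09). SOD1 had a log2 value of −1.21 (SE 0.15, limma adjusted p = 9.95e-08), and SOD2 was not called (−0.18, SE 0.11, limma adjusted p = 0.158). With library totals alone SOD2 was called higher in head (0.22, limma adjusted p = 0.0361). Called lower in head were its thinned value (−0.36, limma adjusted p = 0.0114) and its values without the replicate 3 head of YM, YM(III) or IIIM #1 or the replicate 1 abdomen of YM (−0.31 to −0.22). Of 4 serpins, genes of the serine protease inhibitor family, Spn2 and SPN13 rose in head and SPN9 and SPN15 fell, against 39% and 37.5% of all tested genes. Spn2 measured 3.75, 19.2 and 27.2 CPM in heads and 0, 2.18 and 14.9 CPM in abdomens (log2 2.42, SE 0.34, limma adjusted p = 1.17e-06), and SPN15 26.5, 36 and 63.6 CPM in heads and 59.7, 99.5 and 149 CPM in abdomens (log2 −1.29, SE 0.15, limma adjusted p = 6.49e-08).

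Of the signalling genes, armadillo rose in head along with HR96, while argos and caspase-1 did not pass the test. The gene armadillo encodes beta-catenin, which works in cell adhesion and Wnt signalling. It measured 97, 145 and 187 CPM in heads and 13.7, 28.4 and 40.5 CPM in abdomens, without overlap (log2 2.47, SE 0.18, limma adjusted p = 1.36e-11). Sxl, whose Drosophila homologue sets sex, measured 49, 60.5 and 78.4 CPM in heads and 21.8, 38.2 and 51.1 CPM in abdomens (log2 0.65, SE 0.10, limma adjusted p = 2.56e-06), and the groups overlapped. The gene argos, an inhibitor of the epidermal growth factor receptor in Drosophila, had a log2 value of −0.28 (SE 0.15, limma adjusted p = 0.0935). edgeR and DESeq2 called argos lower in head (adjusted p = 0.0254 and 0.0186), as did limma without both libraries under 1 M reads (adjusted p = 0.0239), without the replicate 3 head of YM, YM(III) or IIIM #1, and without the YM replicate 2 abdomen (lowest adjusted p 0.0261), while the value was 0.05 with library totals alone. Caspase-1, a cell death protease, was at −0.16 (SE 0.19, limma adjusted p = 0.444).

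Of 7 other tested genes with a symbol, 5 fell in head and 2, THY and Sgf11, did not pass the test, a share called near the 76.6% of all tested genes. CYB2 fell without overlap, at 1.12, 1.62 and 2.42 CPM in heads and 2.49, 6.64 and 11.2 CPM in abdomens (log2 −1.49, SE 0.18, limma adjusted p = 7.83e-08). CYB1 fell with overlap (log2 −1.33, SE 0.35, limma adjusted p = 0.00154), and its highest abdomen was YM replicate 1 at 739 CPM. Prohibitin, a mitochondrial inner membrane protein, measured 62.5, 80.5 and 96.6 CPM in heads and 80.8, 144 and 191 CPM in abdomens (log2 −0.79, SE 0.12, limma adjusted p = 4.08e-06), and TCTP had a log2 value of −0.75 (SE 0.18, limma adjusted p = 0.000755). THY had 0.21 (SE 0.20, limma adjusted p = 0.332) and was called higher with library totals alone (0.61, limma adjusted p = 0.0344). Sgf11, a subunit of the SAGA chromatin complex, had 0.12 (SE 0.25, limma adjusted p = 0.672). Chitinase, with 19 reads in heads and 31 in abdomens, and achaete, with 0 and 1, were too low to test.

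**Figure D3:**
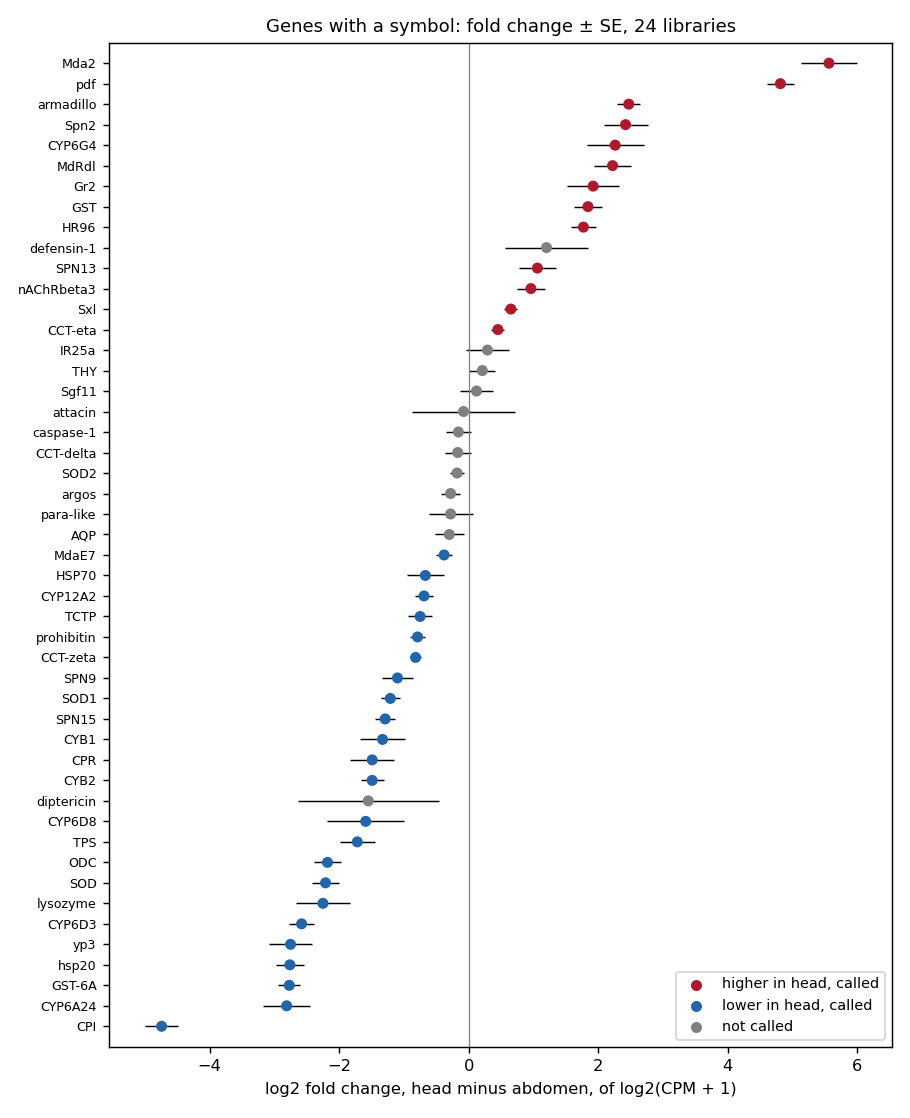
Log2 fold changes, head minus abdomen, on the log2(CPM + 1) scale for the 48 tested genes with a symbol, as points with SE from limma over 24 libraries. Red marks genes called higher in head, blue genes called lower and grey genes not called. Mda2 at 5.56 and pdf at 4.81 stand at the upper end and CPI at −4.74 at the lower.

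Beyond genes with a symbol, the 3 largest head excesses on the log2(CPM + 1) scale were the protein-coding genes LOC101895922, LOC101898316 and LOC101892743. Their products are not named in the sources used here. LOC101898316 measured 26000, 41200 and 62100 CPM in heads and 9.99, 73.5 and 487 CPM in abdomens (log2 9.11, SE 0.50, limma adjusted p = 1.18e-13). LOC101895922 had a log2 value of 9.16 (SE 0.40, limma adjusted p = 2.04e-15) and LOC101892743 one of 9.0 (SE 0.50, limma adjusted p = 1.65e-13). Together the 3 took 5.18 to 11.5% of reads in heads and 0.00155 to 0.0817% in abdomens. In abdomens their levels moved together from library to library. All 3 were highest in YM(III) replicate 1, at 64.4, 487 and 292 CPM, and lowest in IIIM #1 replicate 2, at 1.07, 9.99 and 5.86 CPM.

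The 3 largest abdomen excesses on the log2(CPM + 1) scale were long noncoding RNA genes. As a ratio of means, abdomen over head, the long noncoding gene LOC101889706 at 10500 exceeded these 3, at 5280 to 8480. LOC101894025 measured 0, 0.273 and 8.79 CPM in heads and 5660, 12600 and 28900 CPM in abdomens (log2 −12.50, SE 0.39, limma adjusted p = 3.2e-18). LOC101888455 had a log2 value of −12.47 (SE 0.43, limma adjusted p = 2.25e-17) and LOC101889585 one of −12.44 (SE 0.34, limma adjusted p = 3.08e-19). The 3 took 1.94 to 6.59% of reads in abdomens and at most 0.00332% in heads. Their few reads in heads also moved together by library, and all 3 were highest in YM replicate 3, at 8.79, 13.4 and 5.61 CPM. Whether such reads came from the head or from RNA of other tissue was not tested.

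Long noncoding RNA genes as a class, named so by RefSeq, leaned to the abdomen. Of 339 tested, 91 rose in head (26.8%) and 195 fell (57.5%), against 38.9% and 37.5% of 10664 protein-coding genes. The median log2 fold change was −0.88 for the class and 0.02 for protein-coding genes. Past a fold of 2, 46 rose (13.6%) and 95 fell (28%), against 15.9% and 15.3% of protein-coding genes. Among the 48 genes lower in head by a log2 size of at least 8, 16 were long noncoding, as were 3 of the 22 genes higher by that size and 2.72% of tested genes. Long noncoding genes took 1.97 to 3.63% of reads in heads and 4.35 to 12.1% in abdomens, without overlap. Without the 3 abdominal genes named above the abdomen share was 2.41 to 5.54%, and the tissues overlapped. The median stayed below 0 under all alternatives run, but its size moved. It was −0.26 without the filter on low values, −0.34 with a pseudocount of 5 and −1.42 in edgeR. The filter passed 339 of 563 long noncoding genes and 10664 of 12952 protein-coding genes. Among those passed, the median of the mean levels was 4.81 CPM for long noncoding and 21.1 CPM for protein-coding genes. The exceptions toward head included LOC109613337, LOC109613338 and LOC109613339 on Muller element B, with log2 fold changes of 8.68, 8.6 and 8.65 and mean levels of 4510, 2820 and 5030 CPM in heads and 15.6, 9.05 and 19.4 CPM in abdomens. These 3 were picked after their values were seen.

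**Figure D4:**
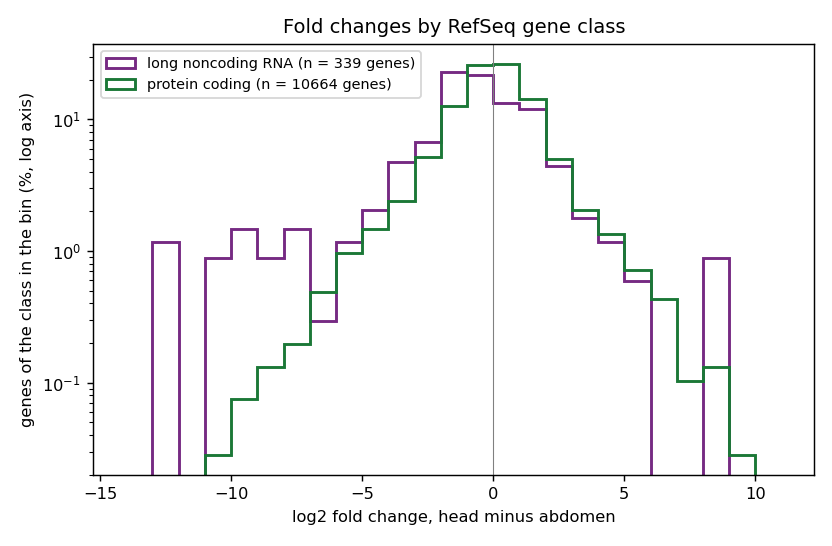
Share of genes in bins of 1 log2 unit of fold change, head minus abdomen (x axis), in percent of the class on a log axis (y axis), for 339 long noncoding RNA genes (purple) and 10664 protein-coding genes (green). The long noncoding genes have a tail at the abdomen end, down to −12.50, and a small group near 8.6.

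Chromosome arms, given as Muller elements, differed little. Genes higher and lower in head made up 37.8 to 39.6% and 35.7 to 40.7% of tested genes on elements A to E, and median log2 fold changes lay between −0.04 and 0.05. On element F, the house fly X chromosome, 19 of 37 tested genes rose (51.4%) and 11 fell (29.7%), with a median of 0.51. Element F is the smallest of the 6, and its difference from the others was not tested.

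The tissue difference depended on genotype at a small share of genes. limma's F test of genotype by tissue called 389 genes (3.12%). For 289 of them the head minus abdomen value had the same sign in all 4 genotypes, and 33 had opposite signs called in at least 2 genotypes. In heads 244 of the 389 averaged under 1 CPM, which limits the range of their 4 head means, and 12 averaged under 1 CPM in abdomens. Among the 133 at 1 CPM or more in both tissues, the range of the 4 genotype means was larger in abdomens than in heads for 122, with a median range of 0.39 log2 units in heads and 2.25 in abdomens. YM abdomens had the highest of the 4 means for 341 genes and YM(III) abdomens the lowest for 335, and both held for 321, of which 103 were among those 133. All 389 genes were chosen by the F test on these same means, and the shares over all tested genes were not computed. On the third principal component, over all tested genes, YM abdomens were at 42.1 to 48.2 and YM(III) abdomens at −68.2 to −37.8. That component also set replicate 3 heads apart, at 19.6 to 42.9, from the other heads, at −32.3 to −2.1. Whether the order of YM and YM(III) abdomens is particular to the 389 genes was not tested. YM and YM(III) males carry the same type of proto-Y chromosome. Element A is chromosome III of the house fly, the chromosome in which YM(III) males differ. It held 11.6% of the 389 genes and 15% of tested genes.

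The count was not stable. edgeR called 40 genes, and leaving out single libraries gave 181 to 765. It was lower by more than 1.5 times without any 1 of the 6 heads of YM and YM(III) (198 to 236), without the YM abdomens of replicate 1 (181) or 2 (246) or without the YM(III) replicate 3 abdomen (254). It rose to 688 without the YM(III) replicate 2 abdomen and to 765 without the IIIM #1 replicate 3 abdomen. With reads thinned to the lowest total it was 121, and with replicates 1 and 2 alone 800.

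LOC101891811 had the smallest adjusted p (limma adjusted p = 1.35e-05). It was under 0.6 CPM in every head. In abdomens it measured 163, 147 and 204 CPM in YM, 2.23, 3.17 and 2.08 CPM in YM(III), 88.8, 61.3 and 44.1 CPM in IIIM #1, and 54.6, 29.9 and 76.4 CPM in IIIM #2. The log2 values, head minus abdomen, were −6.98, −1.54, −5.71 and −5.52 in that order of genotypes. LOC101889162, LOC101893054 (limma adjusted p = 4.32e-05 each) and LOC101888701 (limma adjusted p = 7.14e-05) had the same order at the ends. Their YM abdomens averaged 42.4 ± 9.73, 14.6 ± 1.82 and 21.1 ± 4.76 CPM, and their YM(III) abdomens 0.822 ± 0.621, 0.202 ± 0.217 and 0.125 ± 0.148 CPM (SD, n = 3 each).

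The long noncoding gene LOC101889706 had another pattern (limma adjusted p = 4.32e-05). It was at 0 to 0.404 CPM in heads. In abdomens it measured 90.5, 370 and 1440 CPM in YM, 1990, 1320 and 2100 CPM in YM(III), 1400, 755 and 966 CPM in IIIM #1, and 1.58, 6.23 and 1.85 CPM in IIIM #2. The IIIM #2 abdomens thus lay below all 9 others. In edgeR none of these 5 genes kept its call (adjusted p = 0.0505 to 0.19), while each kept it under limma without any single library (highest adjusted p 0.000452).

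**Figure D5:**
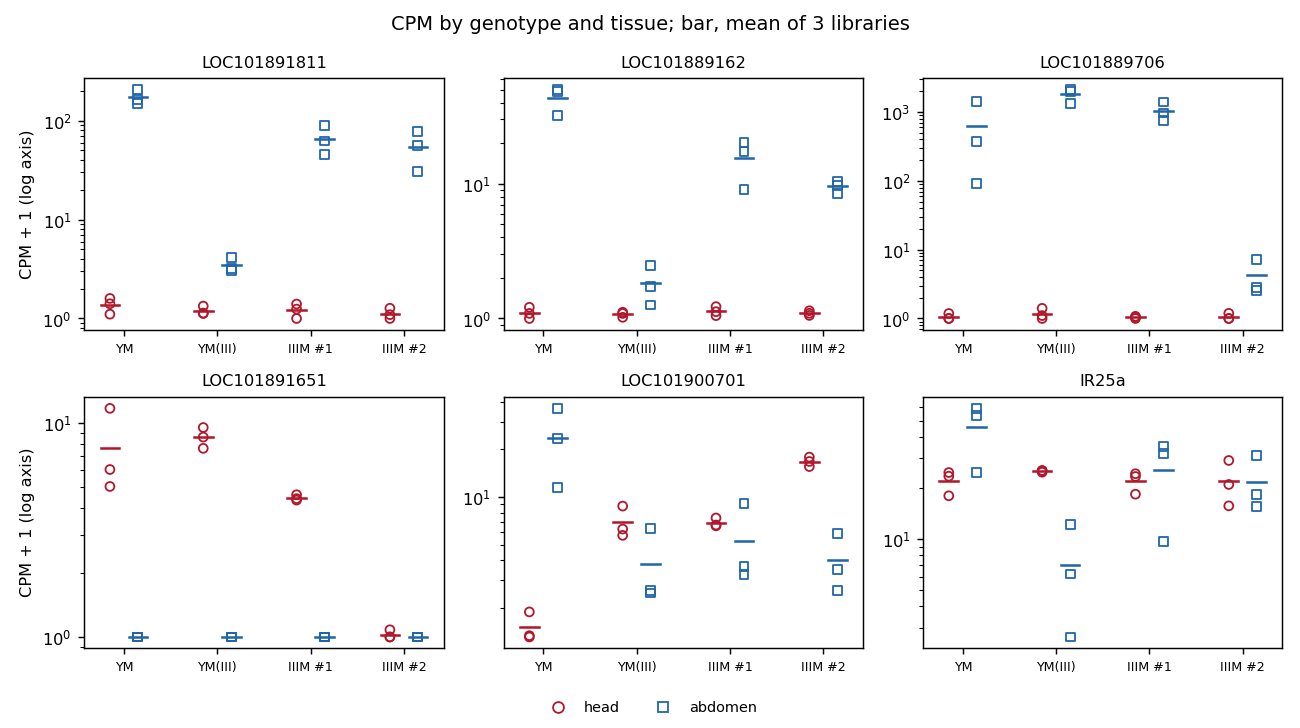
CPM + 1 on a log axis by genotype (x axis), with heads as red circles left of abdomens as blue squares and bars at the mean of 3 libraries. LOC101891811 and LOC101889162 are high in YM and low in YM(III) abdomens, LOC101889706 is low in IIIM #2 abdomens, LOC101891651 is near 0 in IIIM #2 heads, LOC101900701 is low in YM heads and high in YM abdomens, and IR25a, at an adjusted p of 0.0711, was not called.

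The contrast of the tissue difference between the pooled proto-Y types called 5 genes (0.0401%), and 477 had an unadjusted p under 0.05. edgeR called 0, with 445 at an unadjusted p under 0.05, and DESeq2 called 8. With no effect at any gene, a share of 0.05 of the 12461 tested genes would be expected under that limit. Both unadjusted counts were below that share. Of the 5 genes, DESeq2 kept LOC101900701 alone, with adjusted p = 0.15 for LOC101891651, 0.657 for LOC101891822, 0.468 for LOC101889706 and 0.108 for LOC101887966. A genotype here is 1 strain, so proto-Y type and strain cannot be told apart beyond the 2 strains of each type. LOC101891651 had 0 reads in all abdomens and measured 5.06, 4.05 and 10.7 CPM in YM heads, 8.52, 7.59 and 6.61 CPM in YM(III) heads, 3.43, 3.36 and 3.62 CPM in IIIM #1 heads, and 0, 0 and 0.0806 CPM in IIIM #2 heads. Its difference of log2 values, YM types minus IIIM types, was 1.86 (SE 0.23, limma adjusted p = 0.00164). LOC101891822 heads also averaged lowest in IIIM #2 and next lowest in IIIM #1, but highest in YM rather than in YM(III). They averaged 19.1 ± 10.7 CPM in YM, 15.5 ± 3.43 in YM(III), 8.94 ± 3.74 in IIIM #1 and 0.182 ± 0.263 in IIIM #2 (SD, n = 3 each). LOC101891822 had 1 read over all abdomens (difference 2.31, SE 0.31, limma adjusted p = 0.00311). For both, the IIIM #1 heads stood apart from the IIIM #2 heads as well.

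LOC101900701 changed direction. It measured 0.893, 0.316 and 0.341 CPM in YM heads and 22.5, 35.3 and 10.5 CPM in YM abdomens. In IIIM #2 it measured 14.6, 15.8 and 16.9 CPM in heads and 1.58, 2.49 and 4.93 CPM in abdomens. The log2 values, head minus abdomen, were −3.84 in YM, 0.99 in YM(III), 0.53 in IIIM #1 and 2.15 in IIIM #2, so YM alone had a negative value, and the difference between the types was −2.77 (SE 0.46, limma adjusted p = 0.0252). LOC101887966 (difference 1.88, SE 0.32) and LOC101889706 (−3.63, SE 0.61) had the same adjusted p of 0.0252 in limma. For LOC101887966 the log2 values were 2.15 in YM, 2.30 in YM(III), 0.21 in IIIM #1 and 0.48 in IIIM #2. For LOC101889706 they were −8.43, −10.58, −9.92 and −1.83 in that order, so IIIM #2 alone stood apart. Leaving out single libraries gave counts of 2 to 18. The count was 2 or 3 without YM head 1 or 2, YM(III) head 2, either of IIIM #1 heads 1 and 2, either of IIIM #2 heads 2 and 3, YM(III) abdomen 3, IIIM #1 abdomen 2 or IIIM #2 abdomen 1, and 18 without IIIM #1 abdomen 3, and the calls of LOC101900701, LOC101889706 and LOC101887966 were lost in many of these fits.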

How the data were processed

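RNA-seq of 24 male libraries, 12 heads and 12 abdomens, was used. Per the submitters' processing notes, reads were handled with HISAT2 0.12.2 and HTSeq 0.9.1 besides CASAVA 1.8, and DESeq2 1.16.1 was named as well. The build of the genome was not given in the sources used here. The authors deposited a table of 16540 genes per tissue with normalized counts, a linear signal scaled within each tissue. Every value (100% within 0.001 reads) was a whole multiple of its column's smallest nonzero value, so whole reads were recovered, which gave 0.79 to 43.47 M reads per library. They were scaled together with TMM factors from edgeR 4.0.16 and expressed as CPM. The deposited tables' own log2 fold changes, mean values and p-values were not used. Of the identifiers, 13644 matched the RefSeq gene table used for gene class and 2896 did not.

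Genes with at least 1 CPM in at least 6 libraries were tested on log2(CPM + 1) with limma 3.58.1 (trend, robust) in R 4.3.3, with genotype as covariate, and two-sided p-values were adjusted by Benjamini-Hochberg with a threshold of 0.05. Calls past a fold of 2 used limma's treat. A fit of 8 group means gave the values within genotypes and both interaction tests. The steps were tested on simulated data. edgeR and DESeq2 1.42.0 on recovered reads were alternatives, with other scalings, filters, pseudocounts, replicate terms, thinned reads and each library left out. A replicate term within each tissue and fixed pairs were added after the data were seen. Python 3.11.15, scipy 1.17.1 and matplotlib 3.10.9 were used for counting intervals and plots.

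The rule for named genes took every gene that carried a symbol, the 3 largest fold changes in each direction among LOC identifiers, and the 5 smallest p-values of each interaction. To be ranked by fold change, a gene had to be called, without overlap, and at a mean of at least 5 CPM in the higher tissue. Members and lists were chosen with earlier results of these data known. The labels call the replicates biological and say that flies were dissected individually, but not from which cultures they came, so p-values measure the spread between these flies. Each genotype was 1 strain. Product names, coordinates and sequences were not used here. The lists matched symbols only, so vision, digestion and testis lists had no members.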

Additional observations from a re-analysis of the deposited data

Results flagged for a closer look

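The head minus abdomen difference itself differed among genotypes, by limma's interaction tests, for 389 genes over the 4 genotypes and for 5 between the pooled proto-Y types. For the 4 genotypes the adjusted p in limma was 1.35e-05 for LOC101891811, 4.32e-05 for LOC101889706, 4.32e-05 for LOC101889162, 4.32e-05 for LOC101893054 and 7.14e-05 for LOC101888701. Between the proto-Y types it was 0.00164 for LOC101891651, 0.00311 for LOC101891822, 0.0252 for LOC101900701, 0.0252 for LOC101889706 and 0.0252 for LOC101887966. Groups of 3 or 12 libraries were not searched for single outlying libraries.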

How the results depend on the processing

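Calls of head against abdomen numbered 7224 to 10746 over the other settings, and 9329 to 9553 on leaving out 1 library, but with library totals alone 63.4% of calls were higher in head, against 51% with TMM scaling. Within genotypes, leaving out 1 library gave 5171 to 6151 genes in YM, 5182 to 6334 in YM(III), 5849 to 7003 in IIIM #1 and 5792 to 6958 in IIIM #2. Calls past a fold of 2 were 2482 with a pseudocount of 5, and 3803 to 3967 on leaving out 1 library. Genotype by tissue calls, 389 in limma, were 194 with a mean CPM of at least 5, 237 with a pseudocount of 0.1, 40 in edgeR, 240 without both libraries under 1 M reads and 121 with thinned reads. With a term for replicate 3 they were 665, with that term within each tissue 1063 and with replicates 1 and 2 alone 800. Proto-Y by tissue calls, 5 in limma, were 16 without a filter, 2 and 8 with pseudocounts of 0.1 and 5, 0 in edgeR, 8 in DESeq2, 25 with the replicate 3 term within each tissue, 66 with replicates 1 and 2 alone and 0 with thinned reads. Leaving out 1 library gave 181 to 765 and 2 to 18. The cause of these shifts was not tested.

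Replicate numbers are shared by heads and abdomens. Deviations of same-numbered heads and abdomens of a genotype correlated at 0.05 to 0.37 across genes, over 0.1 in 11 of 12 pairs. Of 12 heads, 3 correlated best with their own number. Between genotypes, heads and abdomens of the same number had a mean r of 0.20. The mean was 0.26 where both were replicate 3 and −0.20 where 1 of 2 was. The check cannot tell pairing from the shift of replicate 3, so the numbers were not taken to pair the samples. With a replicate block for the pairs, the interaction calls were 643 and 8, and with fixed pairs 206.

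Values of single genes that changed sign were small. With library totals alone they were 0.10 for AQP, 0.05 for argos, 0.17 for attacin, 0.20 for caspase-1, 0.22 for CCT-delta, 0.02 for MdaE7, 0.12 for para-like, 0.22 for SOD2 and 0.25 for LOC101900701. With replicates 1 and 2 alone, and equally with the replicate 3 term within each tissue, CCT-delta was 0.18, IR25a −0.25, para-like 0.43, SOD2 0.00, THY −0.24 and LOC101900701 0.10, and attacin 0.15 and 0.14. Attacin was also 0.15 with a pseudocount of 0.1, 0.55 without both shallow libraries and 0.08 with thinned reads. Sgf11 was −0.11 in edgeR, −0.16 in DESeq2, −0.16 without both shallow libraries and −0.20 with thinned reads. LOC101900701 was 0.06 in edgeR, 0.20 in DESeq2 and 0.12 without both shallow libraries. Leaving out 1 library gave −0.52 to 0.43 for attacin, −0.22 to 0.24 for LOC101900701 and −0.11 to 0.22 for Sgf11. The shallowest abdomens, at 3.8 CPM for 3 reads by library total alone, limit values near 1 CPM.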

Other observations

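Diptericin, an antimicrobial peptide gene, was chosen here after its values were seen, and nothing was tested. Its highest head and its highest abdomen had the same replicate number in each of the 4 genotypes. These were YM replicate 2 at 357 CPM in head and 5560 CPM in abdomen, YM(III) replicate 1 at 0.404 and 1.86 CPM, IIIM #1 replicate 3 at 8.22 and 59.2 CPM, and IIIM #2 replicate 2 at 16.4 and 59.8 CPM. The lowest head and abdomen also shared a number in YM, YM(III) and IIIM #2, but not in IIIM #1. Replicate numbers were not taken to pair the samples.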
